A study of Mus musculus with 12 samples.

Results

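Extracellular ATP and adenosine are sensed by macrophages through purinergic receptors, and 10 genes of that system were followed here in mouse macrophages given PgLPS, CS-PA/CNP or both. They are the adenosine receptors Adora2a, Adora2b and Adora3, the nucleotide receptors P2ry2, P2ry6, P2ry12, P2ry14, P2rx4 and P2rx7, and the enzyme Entpd1. They were chosen by name, with earlier results of these data known, as the rows of the deposited table whose symbol equals one of these names. Each of the 10 symbols occurred once among the 21899 genes of that table, and all 10 were among the 11656 genes with enough reads to be tested. RNA was sequenced from primary bone marrow-derived macrophages of wild-type mice, in 4 groups of 3 libraries. The cells were left untreated as control, or received CS-PA/CNP, PgLPS, or the pair together, and no other allele or agent is named for any group. The abbreviations are not expanded in the labels, which also give no dose, no time and no mouse age, and the series title names a composite hydrogel, periodontitis and hypertension. The labels do not say whether the libraries of a group came from separate cultures or animals, so the p-values below measure the spread between these libraries, which may be technical.

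Cells release ATP and other nucleotides when they are stressed, stimulated or damaged. P2X receptors are ion channels opened by ATP, P2Y receptors are G protein-coupled receptors for ATP, ADP, UTP, UDP or UDP-sugars, and the ectoenzyme encoded by Entpd1 (CD39) removes phosphates from ATP and ADP outside the cell. The AMP it leaves is turned into adenosine by the ectoenzyme encoded by Nt5e (CD73), and adenosine acts on its own G protein-coupled receptors. Those encoded by Adora2a and Adora2b raise cyclic AMP and are known in macrophages for restraining the release of inflammatory cytokines, while the one encoded by Adora3 couples to inhibitory G proteins.

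Library totals ran from 14992707 to 20082900 reads, and 1 read was worth 0.0447 to 0.0763 CPM, the unit of all levels below unless stated (reads scaled by library total and TMM factor). TMM factors lay between 1.147 and 1.161 for control, 1.115 and 1.124 for CS-PA/CNP, 0.853 and 0.875 for PgLPS, and 0.890 and 0.901 for both agents. All 8 macrophage markers checked (such as Csf1r, Adgre1 and Cd68) were tested, with a summed level of 19990 to 31680 CPM per library. Most of that sum was Lyz2, with a mean of 15400 CPM in control and 17570 CPM with PgLPS. The markers did not all move alike, as mean Adgre1 was 1055 CPM in control and 3921 CPM with PgLPS, and mean Cd68 1494 and 1199 CPM. Summed T cell markers reached at most 0.341 CPM, with Cd3d at 0 reads throughout, and neutrophil and granulocyte precursor markers 53.0 to 89.8 CPM. B cell markers summed to at most 3.61 CPM and dendritic cell markers to at most 4.43 CPM. Stromal markers summed to between 5.94 and 50.5 CPM with PgLPS, highest in library 1, and to between 0.472 and 4.62 CPM over the other 3 groups, and their part in the results was not tested. Without that library, 9 of the 10 genes passed the test of PgLPS against control in place of 10.

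PgLPS raised most of the 10 genes. In edgeR's quasi-likelihood test with Benjamini-Hochberg adjustment over all tested genes, at an adjusted p threshold of 0.05, 9 were higher and 1 was lower than in control, although P2rx7 changed direction with another scaling, given below, and the P2ry12 call was lost in 7 of 18 other fits. With each library left out in turn, 8 to 10 of the 10 genes were called. Among all tested genes 63.8% were called in this comparison, 32.2% higher and 31.6% lower. At least 2-fold rises were found for 6 of the 10, and for 11.8% of all tested genes. Of the 6, P2rx4 and P2ry2 fell short of 2-fold in at least 1 of 18 other fits, with lowest log2 values of 0.95 and 0.84. The median log2 fold change was 1.31 over the 10 genes and −0.00 over all tested genes. For all 10 the 3 PgLPS libraries lay wholly above or wholly below the 3 control libraries, as they did for 66.4% of tested genes.

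Adding CS-PA/CNP to PgLPS lowered Adora2a, Adora2b, P2ry2 and P2ry14 and raised Entpd1, relative to PgLPS alone. The other 5 genes did not pass, where 19.5% of tested genes were called, 1098 higher and 1170 lower. The libraries of the 2 groups did not overlap for 9 of the 10 genes, and for 31.4% of tested genes. Given alone, CS-PA/CNP raised Adora2a, Adora2b, P2ry2 and P2rx4 and lowered Entpd1, where 12.3% of tested genes were called, 6.67% higher and 5.61% lower. In that comparison the libraries did not overlap for 8 of the 10 genes, and for 31.4% of tested genes. Median log2 fold changes of the 10 genes were −0.37 for the addition to PgLPS and 0.27 for CS-PA/CNP alone, beside −0.01 and 0.00 over all tested genes. Thus 4 of the 10 genes were called in opposite directions without and with PgLPS, as were 3.48% of tested genes. Adora2a, Adora2b and P2ry2 were higher without and lower with it, as were 1.95% of tested genes, and Entpd1 was lower without and higher with it, as were 1.54%. These comparisons share no libraries.

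**Figure D1:**
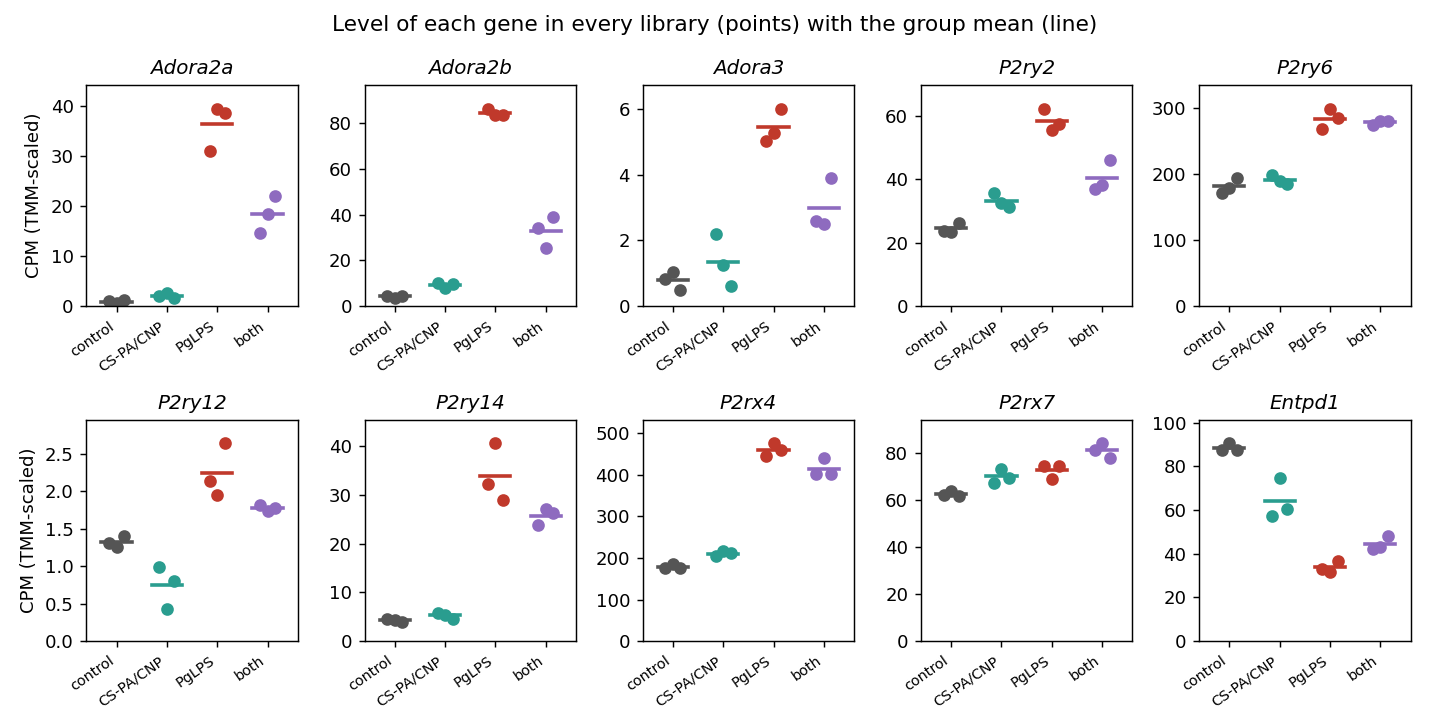
Level of each of the 10 genes in TMM-scaled CPM, on a linear axis from 0 that differs between genes, with a point for each library and a line at the mean of each group of 3. Adora2a and Adora2b are lowest in control, highest with PgLPS and in between with both agents, while Entpd1 has the reverse order.

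Sequences just before the start site are shown for Adora2b, P2ry2 and Entpd1, which are the genes with opposite CS-PA/CNP effects that are in the RefSeq promoter table (GRCm38.p6). That table held 8 of the 10 genes and lacks Adora2a and P2ry6. Each line is the 250 bases before the first listed start, 5′ to 3′ on the gene's strand. Capitals mark matches to GGG, then any 5 bases, then CC, searched on both strands. This pattern is wider than the motif bound by NF-kB.
Adora2b: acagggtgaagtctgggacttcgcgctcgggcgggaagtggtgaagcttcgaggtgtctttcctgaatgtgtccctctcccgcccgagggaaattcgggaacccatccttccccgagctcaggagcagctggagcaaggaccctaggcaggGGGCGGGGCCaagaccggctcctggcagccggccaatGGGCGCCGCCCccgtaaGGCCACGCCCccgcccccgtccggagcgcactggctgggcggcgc
P2ry2: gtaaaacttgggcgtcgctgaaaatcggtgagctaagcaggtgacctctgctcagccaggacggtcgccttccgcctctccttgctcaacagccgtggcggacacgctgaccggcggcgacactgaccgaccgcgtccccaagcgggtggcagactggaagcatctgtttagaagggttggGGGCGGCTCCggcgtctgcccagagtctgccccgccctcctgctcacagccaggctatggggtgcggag
Entpd1: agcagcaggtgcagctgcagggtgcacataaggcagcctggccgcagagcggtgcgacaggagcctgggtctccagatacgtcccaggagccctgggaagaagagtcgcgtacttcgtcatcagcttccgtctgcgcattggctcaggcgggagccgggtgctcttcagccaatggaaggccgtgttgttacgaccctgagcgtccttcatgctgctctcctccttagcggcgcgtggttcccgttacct
The Adora2b window, chr11:62248734-62248983 on the plus strand, held 4 matches, of which a pair overlap each other. The P2ry2 window, chr7:101012054-101012303 on the minus strand, held 1, and the Entpd1 window, chr19:40612116-40612365 on the plus strand, held 0. Over all 32851 promoter windows of this length, 45.8% held at least 1 match and 4.97% held 4 or more. The full cyclic AMP response element TGACGTCA, present in 1.55% of windows, was in none of the 14 windows of the 8 genes. All matches marked here begin with GGGCG on 1 of the strands, so a window rich in G and C can hold them by composition. These are matches of letters and not measured binding sites, and binding by NF-kB was not tested.

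Among the adenosine receptor genes, Adora2a and Adora2b had the largest rises of all 10 genes with PgLPS. Adora2a, which encodes a receptor that stimulates adenylyl cyclase, had 0.996, 0.654 and 1.18 CPM in the control libraries. It had 1.99, 2.75 and 1.65 CPM with CS-PA/CNP, 31.0, 39.4 and 38.6 CPM with PgLPS, and 14.7, 18.4 and 22.1 CPM with both agents. No 2 of the 4 groups overlapped, and every PgLPS library was above every library with both agents. Adora2a thus rose with PgLPS by 5.27 ± 0.22 on the log2 scale (SE, adjusted p = 1.1e-13, edgeR), a 38.7-fold difference. It was lower with both agents than with PgLPS alone by a log2 fold change of −0.99 ± 0.15 (adjusted p = 9.2e-05), and it remained far above control at 4.29 ± 0.23. CS-PA/CNP alone raised it by 1.17 ± 0.30 (adjusted p = 0.014), from a low level, and that call rested on single libraries. It was lost without control library 2 (adjusted p = 0.083) or without CS-PA/CNP library 2 (adjusted p = 0.084).

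Adora2b encodes the low-affinity adenosine receptor, which also raises cyclic AMP. It had 4.61, 3.77 and 4.59 CPM in control, 10.1, 7.88 and 9.88 CPM with CS-PA/CNP, 86.2, 83.6 and 83.5 CPM with PgLPS, and 34.3, 25.6 and 38.9 CPM with both agents. The PgLPS libraries were close together and none of the 4 groups overlapped. PgLPS raised Adora2b 19.5-fold, a log2 fold change of 4.29 ± 0.15 (adjusted p = 4.5e-15, edgeR). With both agents it was lower than with PgLPS alone by −1.36 ± 0.12 (adjusted p = 9e-08), the largest fall among the 10 genes, while still 2.93 ± 0.15 above control. Among all tested genes 1.74% were called and at least 2-fold lower in that comparison. CS-PA/CNP alone raised it by 1.10 ± 0.16 (adjusted p = 1e-04).

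Adora3, the receptor that couples to inhibitory G proteins, was scarce in all groups. Its control libraries held only 9 to 21 reads, or 0.839, 1.06 and 0.504 CPM, and the CS-PA/CNP libraries held 2.21, 1.24 and 0.626 CPM, overlapping them. With PgLPS it had 5.03, 5.26 and 6.0 CPM, and with both agents 2.60, 2.49 and 3.88 CPM, all below PgLPS alone. It rose with PgLPS by 2.74 ± 0.36 (adjusted p = 2.2e-06, edgeR). The difference between both agents and PgLPS alone, −0.87 ± 0.31, missed the threshold (adjusted p = 0.059), and passed it in 7 of 18 other ways of fitting (0.019 to 0.17). In GENCODE's GRCm38 annotation 779 of the 3729 exon bases of Adora3 (20.9%) also belong to Tmigd3 on the same strand, so its count is uncertain. Mast cells also carry this receptor, and the mast cell markers Mcpt4 and Tpsb2 were at 0 reads in all 12 libraries. The other 2 of that list of 4 brought its sum to between 0.654 and 1.47 CPM for control, 0.715 and 1.13 for CS-PA/CNP, 0.650 and 2.34 for PgLPS, and 0.926 and 2.66 for both, and their part in the result was not tested. Here as elsewhere in bulk RNA, fewer cells of a type and less RNA per cell cannot be told apart.

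The P2Y receptor genes differed among themselves in how far they moved. P2ry2, the receptor for ATP and UTP that serves as a sensor of nucleotides from dying cells, had 23.8, 23.4 and 26.4 CPM in control and 35.7, 32.6 and 31.4 CPM with CS-PA/CNP. It had 62.2, 55.5 and 57.4 CPM with PgLPS, and 36.8, 38.3 and 45.9 CPM with both agents. All 4 groups were apart, and the levels with both agents lay nearer to CS-PA/CNP alone than to PgLPS alone. PgLPS raised P2ry2 2.38-fold (log2 1.25 ± 0.09, adjusted p = 7.6e-10, edgeR), and the addition of CS-PA/CNP lowered it by −0.53 ± 0.09 (adjusted p = 0.00026). CS-PA/CNP alone raised it by 0.44 ± 0.09 (adjusted p = 0.0036).

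P2ry14, the receptor for UDP-glucose and other UDP-sugars, had 4.51, 4.27 and 4.03 CPM in control and 5.80, 5.40 and 4.65 CPM with CS-PA/CNP. With PgLPS it had 32.3, 40.6 and 28.9 CPM, and with both agents 23.9, 27.2 and 26.3 CPM. The PgLPS libraries were the most spread, and all were above those with both agents. It rose 7.93-fold with PgLPS (log2 2.99 ± 0.14, adjusted p = 6.7e-13, edgeR). The fall with both agents, −0.40 ± 0.12 (adjusted p = 0.023), was lost without PgLPS library 2, where it was −0.24 (adjusted p = 0.15). It was also lost without library 1 or 3 of the group given both agents (adjusted p = 0.10 and 0.052) and in a fit of those 2 groups alone (adjusted p = 0.056). The difference of CS-PA/CNP alone from control, 0.30 ± 0.16, did not pass (adjusted p = 0.28).

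P2ry6, the UDP receptor linked to phagocytosis, was the most strongly expressed of the 10 per length and changed little. It had 171, 179.6 and 195 CPM in control, 199, 189 and 185 CPM with CS-PA/CNP, 269, 299 and 285 CPM with PgLPS, and 275, 279.9 and 280.2 CPM with both agents. Control and CS-PA/CNP libraries overlapped, as did those with PgLPS and with both. PgLPS raised P2ry6 by 0.64 ± 0.06 (adjusted p = 2.7e-08, edgeR). Neither effect of CS-PA/CNP passed, with 0.07 ± 0.06 without PgLPS (adjusted p = 0.54) and −0.03 ± 0.06 with it (adjusted p = 0.79).

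P2ry12, the ADP receptor best known from platelets and microglia, was close to the lower limit of detection, with 25 reads in each control library. It had 1.31, 1.26 and 1.40 CPM in control, 0.994, 0.432 and 0.804 CPM with CS-PA/CNP, 2.14, 1.95 and 2.64 CPM with PgLPS, and 1.82, 1.74 and 1.77 CPM with both agents. PgLPS libraries were above control by 0.76 ± 0.31 (adjusted p = 0.036, edgeR), a call lost in 7 of 18 other ways of fitting (0.029 to 0.30). Those included the fits without control library 1, 2 or 3 and without PgLPS library 1 or 3, where the log2 difference was 0.74, 0.71, 0.78, 0.80 and 0.62. The other effects did not pass, with −0.82 ± 0.34 for CS-PA/CNP alone (adjusted p = 0.14) and −0.34 ± 0.30 for its addition to PgLPS (adjusted p = 0.49). The 4 platelet and megakaryocyte markers summed to between 5.19 and 6.44 CPM for control, 5.86 and 7.999 for CS-PA/CNP, 12.3 and 17.4 for PgLPS, and 12.1 and 13.9 for both, with Gp1bb at 0 reads in all 12 libraries. The 4 microglia markers summed to 32.8 to 37.2 CPM in control and 13.9 to 18.2 CPM in the other groups, with Sall1 and Sall3 at 0 reads in all 12. The other members of that list went opposite ways with PgLPS. Mean Fcrls, most of the sum, was 34.45 CPM in control and 12.75 CPM with PgLPS, while mean Tmem119 was 0.856 and 4.89 CPM. The part of either list in the P2ry12 result was not tested.

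Of the P2X channel genes, P2rx4 rose with PgLPS and P2rx7 changed little. P2rx4, an ATP-gated channel found largely in lysosomes, had 175, 186 and 175 CPM in control, 204, 217 and 211 CPM with CS-PA/CNP, 445, 475 and 459 CPM with PgLPS, and 402, 439 and 402 CPM with both agents. Its 4 groups did not overlap. It rose 2.57-fold with PgLPS (log2 1.36 ± 0.06, adjusted p = 1.2e-13, edgeR) and by 0.24 ± 0.06 with CS-PA/CNP alone (adjusted p = 0.0087). The latter was lost without control library 3 or CS-PA/CNP library 2 (adjusted p = 0.055 and 0.052). With both agents it differed from PgLPS alone by −0.15 ± 0.06, which did not pass (adjusted p = 0.071) but did in 3 of 18 other fits (0.017 to 0.23), among them the fit without library 2 of the cells given both (−0.19, adjusted p = 0.026) and DESeq2 (adjusted p = 0.031).

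P2rx7 encodes the channel through which high ATP drives potassium loss and activation of the NLRP3 inflammasome. It had 62.3, 64.0 and 61.8 CPM in control, 67.4, 73.4 and 69.6 CPM with CS-PA/CNP, 74.4, 69.1 and 74.6 CPM with PgLPS, and 81.5, 84.1 and 77.9 CPM with both agents. The whole span of the 12 libraries was narrow. On TMM-scaled counts the rise with PgLPS was 0.21 ± 0.07 (adjusted p = 0.008, edgeR), and 0.18 (adjusted p = 0.051) without control library 3. With scaling by library totals alone it turned to −0.20 (adjusted p = 0.011), so no direction can be given for P2rx7. That scaling shifted the median of all tested genes by −0.42 in this comparison and the share of calls that were higher from 50.5% to 21.8%. The other 8 genes that PgLPS raised kept a positive log2 fold change under it, although P2ry12 no longer passed (0.35, adjusted p = 0.30). Neither effect of CS-PA/CNP on P2rx7 passed, with 0.16 ± 0.07 (adjusted p = 0.12) without PgLPS and 0.16 ± 0.07 with it (adjusted p = 0.099). The ratio of P2rx4 to P2rx7 in RPKM (the read count divided by the deposited gene length and the library total), which needs no scaling between libraries, was 2.42 ± 0.0392 (SD, n = 3) in control, 2.55 ± 0.0347 with CS-PA/CNP, 5.38 ± 0.403 with PgLPS and 4.34 ± 0.132 with both.

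Entpd1, which begins the breakdown of extracellular ATP towards adenosine, was the only one of the 10 that fell with PgLPS on TMM-scaled counts. Its libraries held 87.6, 90.5 and 87.6 CPM in control, 57.5, 74.6 and 60.6 CPM with CS-PA/CNP, 32.9, 31.7 and 36.7 CPM with PgLPS, and 42.3, 42.9 and 48.0 CPM with both agents. The groups did not overlap, and their order was the reverse of that of Adora2b. PgLPS lowered it 2.62-fold (log2 −1.39 ± 0.09, adjusted p = 1.7e-10, edgeR), where 12.6% of tested genes were called and at least 2-fold lower. With both agents it was higher than with PgLPS alone by 0.39 ± 0.10 (adjusted p = 0.0062) and lower than control by −0.997 ± 0.09 (adjusted p = 2.1e-08). CS-PA/CNP alone lowered it by −0.46 ± 0.09 (adjusted p = 0.0014).

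**Figure D2:**
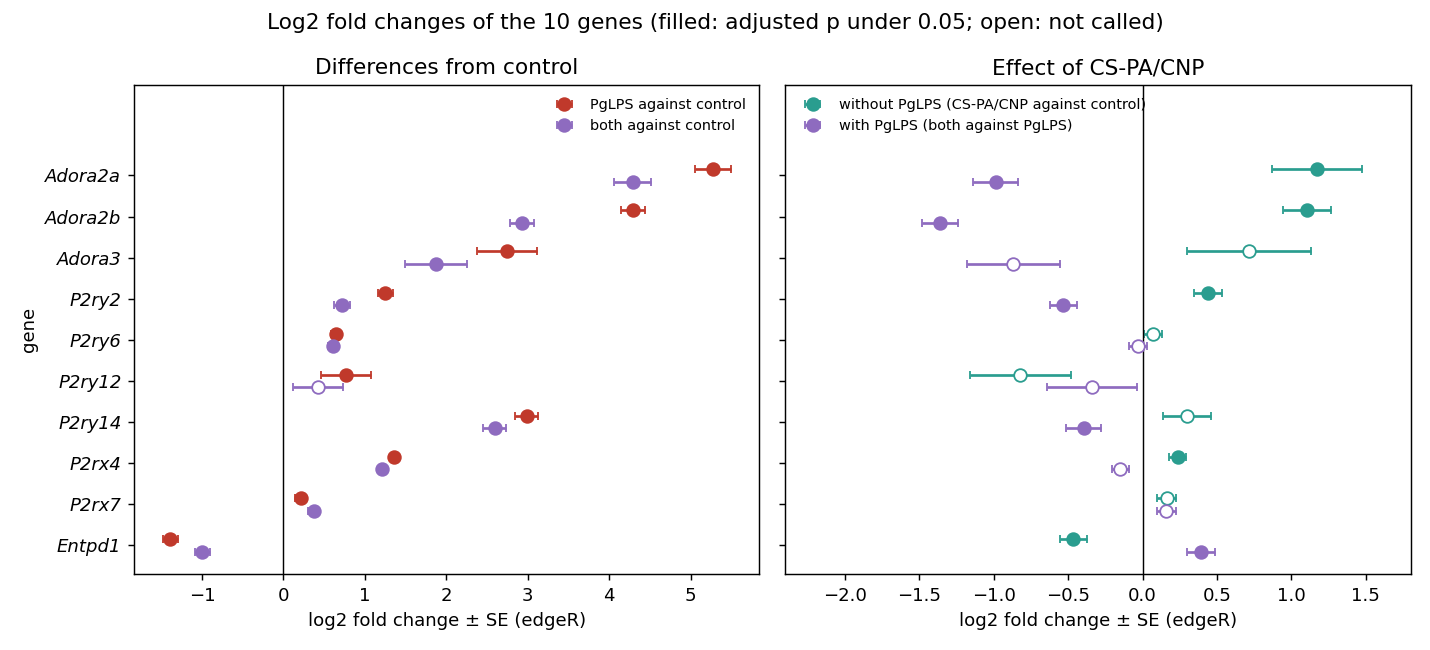
Log2 fold changes of the 10 genes (horizontal axis) with bars of 1 SE and filled points where the adjusted p was under 0.05, for the 2 differences from control on the left and the effects of CS-PA/CNP without and with PgLPS on the right. On the right, Adora2a, Adora2b and P2ry2 are above 0 without PgLPS and below 0 with it, and Entpd1 is the reverse.

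Set against control rather than PgLPS, the cells given both agents had 8 of the 10 genes higher and Entpd1 lower, where 58.0% of tested genes were called, 29.7% higher and 28.4% lower. The libraries did not overlap for all 10 genes, and for 63.1% of tested genes. P2ry12 did not pass (0.43 ± 0.31, adjusted p = 0.26, edgeR). For P2rx7 the difference was 0.37 ± 0.06 (adjusted p = 6.9e-05), but 0.01 (adjusted p = 0.90) with scaling by library totals. The interaction asks whether CS-PA/CNP acted differently when PgLPS was present. It was called for 7 of the 10 genes, 6 lower and 1 higher, where 15.8% of tested genes were called, 8.34% lower and 7.46% higher. The largest was that of Adora2b, −2.46 ± 0.20 (adjusted p = 5.2e-08), and that of Entpd1 was 0.86 ± 0.13 (adjusted p = 1e-04).

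Levels can be compared between genes only per length, and RPKM was used for that. In control the order of mean RPKM was P2ry6 at 72.6, P2rx4 at 29.3, Entpd1 at 18.3, P2rx7 at 12.1, P2ry2 at 7.19, Adora2b at 2.70, P2ry12 at 0.598, P2ry14 at 0.445, Adora2a at 0.354 and Adora3 at 0.247. The libraries of P2ry14 and Adora2a overlapped, as did those of Adora2a and Adora3. With PgLPS the order was P2ry6 at 85.1, P2rx4 at 56.5, Adora2b at 39.5, P2ry2 at 12.9, P2rx7 at 10.5, Adora2a at 10.2, Entpd1 at 5.23, P2ry14 at 2.65, Adora3 at 1.26 and P2ry12 at 0.761. P2rx7 and Adora2a overlapped there. Adora2b thus passed P2ry2, P2rx7 and Entpd1, and Entpd1 dropped below both Adora2a and Adora2b.

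With both agents Adora2b, at 16.0 RPKM, was still below only P2ry6 and P2rx4 in mean level, but its libraries overlapped those of P2rx7 at 12.2. Entpd1 at 7.13 was again above Adora2a at 5.38. With CS-PA/CNP alone the order was as in control for P2ry6 (74.2) and P2rx4 (33.5), followed by P2rx7 (13.2) and Entpd1 (12.9), which overlapped. Among tested genes, the share with a lower mean RPKM than Adora2b was 30.1% in control, 48.1% with CS-PA/CNP, 90.1% with PgLPS and 77.2% with both agents. The RPKM ratio of Adora2b to Adora2a was 7.91 ± 1.56 (SD, n = 3) in control, 7.69 ± 2.65 with CS-PA/CNP, 3.91 ± 0.615 with PgLPS and 3.04 ± 0.794 with both, so Adora2b stayed the more abundant of the pair.

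**Figure D3:**
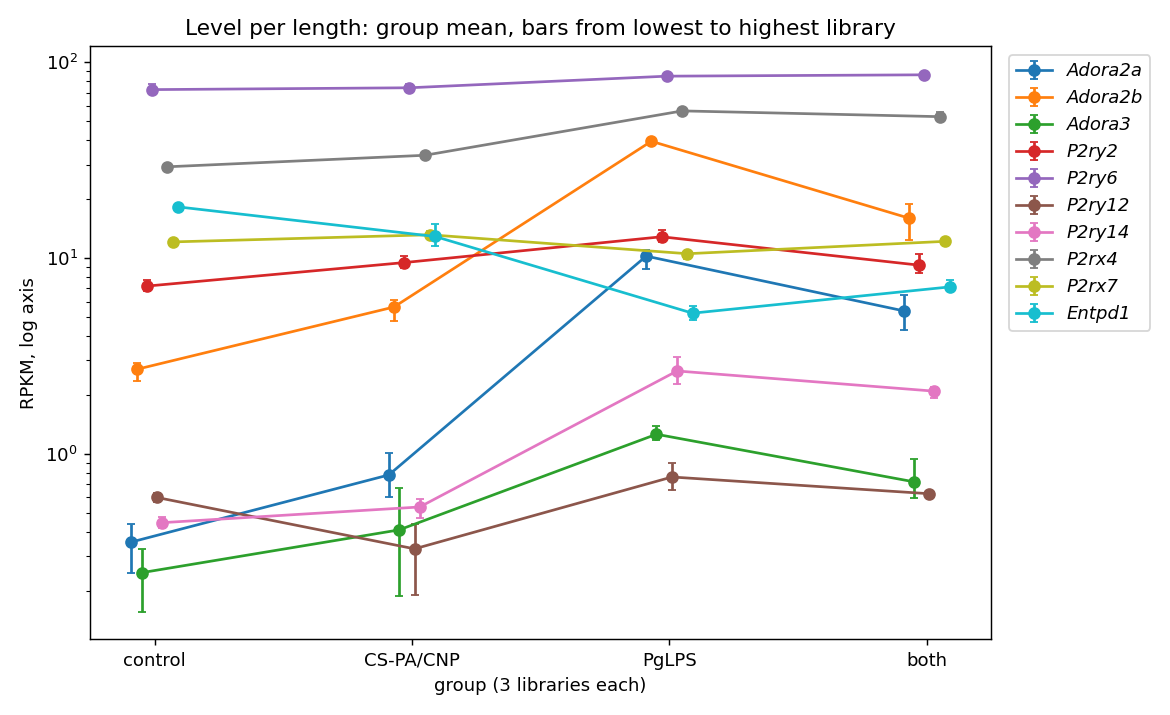
Mean RPKM of the 10 genes in each group on a log axis, with bars from the lowest to the highest of 3 libraries and lines joining the means of a gene, which only guide the eye between unordered groups. Adora2b lies below P2ry2, P2rx7 and Entpd1 in control and above all 3 with PgLPS, while Entpd1 lies above Adora2a and Adora2b in control and below both with PgLPS.

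Other genes of the pathway were taken from lists of 78 genes, of which 59 were tested. With PgLPS 22 of the 59 were higher and 26 lower, beside 32.2% and 31.6% of all tested genes. Their median log2 fold change was −0.13. With CS-PA/CNP added to PgLPS 8 were higher and 12 lower, where 19.5% of tested genes were called in either direction. With CS-PA/CNP alone 8 were higher and 10 lower, beside 6.67% and 5.61% of tested genes. These shares also stand beside the counts of the single lists below, all of which are from TMM-scaled counts. The lists were not counted again with scaling by library totals. With that scaling the median log2 fold change of all tested genes was −0.42 for PgLPS against control. The remaining adenosine receptor gene, Adora1, had 0 reads in all 12 libraries. Of 5 other P2X genes only P2rx1 and P2rx5 were tested, and neither passed with PgLPS. Of 8 other P2Y and related receptor genes 5 were tested. P2ry1, an ADP receptor, fell from 9.06 to 1.498 CPM with PgLPS (log2 −2.56 ± 0.24, adjusted p = 2e-08, edgeR), and P2ry13, another ADP receptor, rose from 1.64 to 5.93 CPM (1.84 ± 0.25, adjusted p = 3.3e-06). Gpr35, an orphan receptor related to this family, rose from 8.24 to 16.3 CPM (0.98 ± 0.13, adjusted p = 1.8e-06) and was lower with both agents at 9.56 CPM (−0.76 ± 0.13, adjusted p = 0.00022). The lysophosphatidylserine receptor gene Gpr34 fell with PgLPS (adjusted p = 3.6e-07), from 61 to 84 reads per control library to 0 to 3 reads.

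Among 15 genes of extracellular nucleotide hydrolysis 9 were tested, 5 of which rose and 4 of which fell with PgLPS. The ectoenzymes that use NAD rose most. Cd38 went from 1.51 CPM in control to 385.7 CPM (log2 7.99 ± 0.15, adjusted p = 5.7e-19, edgeR) and Bst1 from 8.36 to 370.8 CPM (5.47 ± 0.09, adjusted p = 8.6e-20). Enpp4, a surface phosphodiesterase, went from 0.920 to 31.7 CPM (5.10 ± 0.20, adjusted p = 4.7e-14). Acpp, a phosphatase that can make adenosine from AMP, went from 1.90 to 51.7 CPM (4.77 ± 0.20, adjusted p = 1e-13). With CS-PA/CNP added, Cd38 was lower at 137.1 CPM (−1.49 ± 0.09, adjusted p = 1.5e-09), Bst1 at 213.6 CPM (−0.80 ± 0.07, adjusted p = 6.6e-08), Enpp4 at 16.2 CPM (−0.97 ± 0.14, adjusted p = 5.3e-05) and Acpp at 33.5 CPM (−0.63 ± 0.14, adjusted p = 0.0036). Nt5e, which was looked at outside the naming rule after its values were seen, was scarce at 1.56 ± 0.447 CPM (SD, n = 3) in control and 0.424 ± 0.323 CPM with PgLPS. It was lower by −1.93 ± 0.63 (adjusted p = 0.012), which did not pass without PgLPS library 3 (adjusted p = 0.072).

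Of 10 genes for the transport of nucleosides and ATP 8 were tested, 3 of which rose and 3 of which fell with PgLPS. Slc28a2, a concentrative nucleoside transporter, went from 15.8 to 199 CPM with PgLPS (3.66 ± 0.11, adjusted p = 4.2e-16, edgeR) and was lower with both agents at 105 CPM (−0.93 ± 0.09, adjusted p = 5.6e-07). Gja1, the connexin whose hemichannels can release ATP, went from 2.14 to 72.4 CPM (5.07 ± 0.26, adjusted p = 2.2e-12) and was lower with both agents at 20.6 CPM (−1.81 ± 0.20, adjusted p = 1.7e-06). It is also abundant in stromal cells, whose markers were higher with PgLPS as given above, and their part in this result was not tested. Panx1, the channel through which many cells release ATP, followed another pattern. Its mean level was 35.3 CPM in control, 85.0 with CS-PA/CNP, 31.2 with PgLPS and 72.5 with both agents. CS-PA/CNP raised it by 1.27 ± 0.09 without PgLPS (adjusted p = 6.9e-09) and by 1.22 ± 0.09 with it (adjusted p = 1e-08), while the difference between PgLPS and control did not pass (−0.18 ± 0.09, adjusted p = 0.09).

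Of 14 genes that make or break down cyclic AMP 12 were tested, 3 of which rose and 6 of which fell with PgLPS. Pde4b, a phosphodiesterase that destroys the second messenger of Adora2a and Adora2b, had a mean of 7.06 CPM in control, 15.8 with CS-PA/CNP, 145.7 with PgLPS and 63.9 with both. It rose with PgLPS by 4.37 ± 0.10 (adjusted p = 7.3e-18, edgeR) and with CS-PA/CNP alone by 1.16 ± 0.10 (adjusted p = 2.4e-07), and fell on its addition to PgLPS (−1.19 ± 0.08, adjusted p = 3.2e-09). Adcy3, an adenylyl cyclase, fell with PgLPS from 10.7 to 2.55 CPM (−2.06 ± 0.19, adjusted p = 2e-08). More abundant cyclase genes, looked at after their values were seen, moved less. Adcy9 fell from 23.2 to 15.3 CPM (−0.61 ± 0.17, adjusted p = 0.0044). Adcy7 had 380 CPM in control and 347 CPM with PgLPS and did not pass (−0.13 ± 0.06, adjusted p = 0.058).

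**Figure D4:**
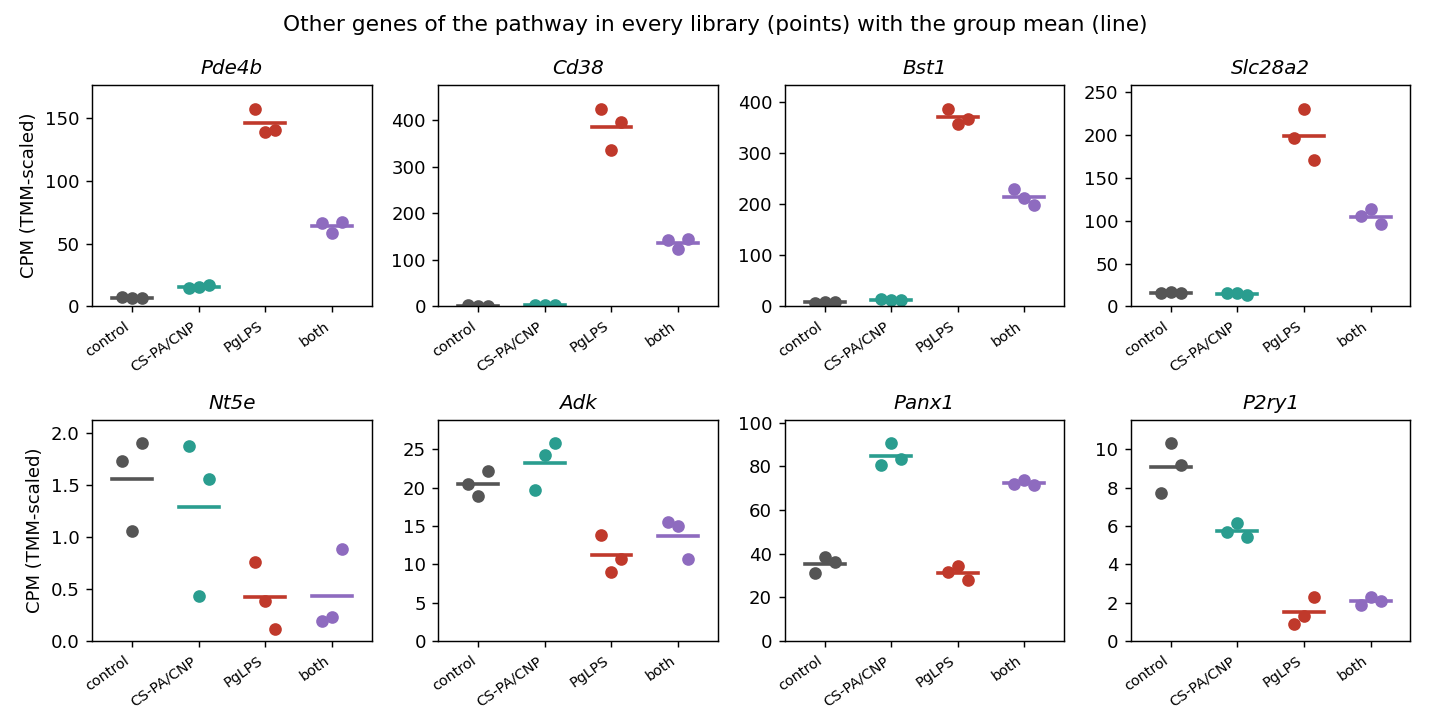
Level of 8 pathway genes outside the 10 in TMM-scaled CPM, on a linear axis from 0 that differs between genes, with a point for each library and a line at the mean of each group. Pde4b, Cd38 and Bst1 are highest with PgLPS and lower with both agents, while Panx1 is high in both groups given CS-PA/CNP.

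For each of the 10 genes the tested genes with the most alike pattern were found by the Euclidean distance between log2 CPM values, centred on each gene's mean, over the 12 libraries. A small distance also follows from a narrow range, and all values share the same libraries and scaling. Pde4b was nearest to Adora2b at a distance of 0.579, followed by Abtb2 at 0.876. Sod2 and Pilra were nearest to Adora2a (1.149 and 1.20), and Tlr1 and Slfn2 to P2ry14 (0.440 and 0.469). Myadm and St3gal1 were nearest to P2ry2 (0.386 and 0.412), Nceh1 and Dnmt3a to Entpd1 (0.405 and 0.410), and Tpm4 and Plod3 to P2rx4 (0.169 and 0.1998). P2ry6 lay nearest to Ppp1r9b and Poldip3 (0.186 and 0.189) and P2rx7 to Cct8 and Srp19 (0.183 and 0.204). Cd300lf was nearest to P2ry12 (0.705), and Tmem119 and Rhbdf2 to Adora3 (1.25 and 1.32).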

How the data were processed

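Macrophage libraries were prepared from total RNA, keeping fragments of 400 to 500 bp, with 15 PCR cycles, per the labels' protocols. The authors deposited whole-number read counts per gene, not normalized, for 12 libraries, together with a gene length. The table's 12 further columns of per-library values were not used. Per the submitters' processing notes the tools were HISAT2 2.0.5, HTSeq 0.9.1, cutadapt 1.15 and DESeq 1.30.0, whose roles are not stated. Genome build and strandedness: not given in the sources used here, and overlapping or antisense genes can therefore share reads. Columns were assigned to groups by their letters (C control, M CS-PA/CNP, L PgLPS, LM both). Library numbers are those of the columns and were not matched to sample titles.

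The main test was edgeR's quasi-likelihood test (edgeR 4.0.16, R 4.3.3) in 1 fit of all 12 libraries with group means and TMM factors. The filterByExpr filter by group left 11656 genes, with 99.97% of reads. Tests were 2-sided, and Benjamini-Hochberg adjustment ran over those genes (threshold 0.05) in each of 5 comparisons. Errors of log2 fold changes are standard errors, which the test does not itself report. They were computed as the size of the unshrunk log2 fold change divided by the square root of the test's F. The log2 fold changes printed are edgeR's own, which are slightly shrunk. The script was tested on simulated data. Libraries of a group differed beyond sampling noise (chi-square divided by genes, 2.78 to 17.9), so they are not copies of each other. That does not show whether they came from separate cultures or animals. Each was counted as 1 replicate. RPKM was computed from the deposited counts and lengths, only to compare levels between genes. Alternatives were library totals, RLE factors, DESeq2, no filter on low counts, each library left out, a library-number block and a fit of the compared groups alone. The 10 genes and the other lists were chosen with earlier results of these data known. Genes named from the other lists are among the 4 of their list with the smallest adjusted p in at least 1 comparison. Genes at 0 reads were named as well. Outside that rule, Nt5e, Adk, Prkar1a, Prkaca, Adcy7, Adcy9 and the P2X genes were added after their values were seen. The 2 genes most alike in pattern were named per gene, except 1 that is not reported here. Promoters came from RefSeq GRCm38.p6 and exon overlaps from GENCODE M21.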

Additional observations from a re-analysis of the deposited data

Results flagged for a closer look

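For 7 of the 10 genes the effect of CS-PA/CNP differed between cells without and with PgLPS, by the interaction term of edgeR's quasi-likelihood test (effect with PgLPS minus effect without, adjusted over all tested genes). For Adora2b the difference was −2.46 ± 0.20 on the log2 scale (SE, adjusted p = 5.2e-08), from 1.10 without PgLPS to −1.36 with it. The Adora2a difference was −2.16 ± 0.34 (adjusted p = 0.00012), from 1.17 to −0.99. P2ry2 differed by −0.97 ± 0.13 (adjusted p = 2.4e-05), from 0.44 to −0.53. For Entpd1 the sign was the opposite, at 0.86 ± 0.13 (adjusted p = 1e-04), from −0.46 to 0.39. P2rx4 differed by −0.39 ± 0.08 (adjusted p = 0.002), although its fall with PgLPS present did not pass on its own. The P2ry14 difference of −0.69 ± 0.20 (adjusted p = 0.022) was lost in 5 of 17 other ways of fitting, with adjusted p up to 0.077, each leaving out 1 library (control 2 or 3, CS-PA/CNP 1 or 2, or library 1 of both agents). The Adora3 difference of −1.58 ± 0.52 (adjusted p = 0.045) was lost in 9 of 17, with adjusted p from 0.0079 to 0.22, and was −1.03 without CS-PA/CNP library 1. The other losses were with library totals and without control library 1 or 3, CS-PA/CNP library 2, PgLPS library 2 or 3, or library 1 or 2 of both agents.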

How the results depend on the processing

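Over all alternatives, 835 of 890 values of the 10 genes kept their direction and side of the threshold, 31 lost the call, 11 gained it and 13 changed sign. Of these, P2rx7 turned to −0.20 for PgLPS against control with library totals. Its interaction, −0.00 as reported, was 0.09 with library totals, 0.00 with DESeq2, 0.01 with no filter on low counts and −0.04 to 0.05 with a library left out. P2ry6 for both agents against PgLPS was 0.02 with library totals, and −0.07 to 0.01 with a library left out (0.01 without PgLPS library 2). For PgLPS against control, library totals turned Prkar1a to −0.26 and Prkaca to −0.40, and Prkaca was −0.01 with no filter on low counts and −0.03 to 0.04 with a library left out. For Gnai3 the difference of both agents from control was 0.00 with library totals. With a library left out, CS-PA/CNP against control called 3 to 5 of the 10 genes (3 without CS-PA/CNP library 2, which drops Adora2a and P2rx4) and 949 to 1641 of all genes (949 without CS-PA/CNP library 3, against 1431). Library totals moved the share of calls that were higher from 48.4% to 61.4% for both agents against PgLPS, from 54.3% to 41.9% for CS-PA/CNP alone, from 51.1% to 21.3% for both against control and from 47.2% to 63.7% for the interaction. The cause of these changes was not tested.

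With the library number as a replicate block, all genes called were 7809, 2905, 2033, 7166 and 2403 for PgLPS, both against PgLPS, CS-PA/CNP, both against control and the interaction, and of the 10 genes 10, 7, 5, 9 and 7 were called. For both agents against PgLPS the block added P2rx4 (−0.15, adjusted p = 0.017) and Adora3 (−0.87, adjusted p = 0.036). The labels do not say what the numbers mark, so the main fit did not pair libraries by them. Deviations of same-numbered libraries of different groups correlated at −0.068 to 0.224 over 18 pairs, 4 of which were over 0.1. For libraries of different number and group the range was −0.19 to 0.108 over 36 pairs, 1 of which was over 0.1. In every other group, 4 of 12 libraries correlated best with the library of their own number. The share of pairs over 0.1 was thus larger among same-numbered libraries. No level expected without pairing was worked out, so these values do not show that the numbers carry no pairing. Whether the numbers mark shared cultures or batches was not tested.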

Other observations

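Genes that recycle adenosine and purines were measured in full, with 10 of 10 tested. With PgLPS 4 rose and 5 fell, in edgeR's quasi-likelihood test with adjusted p. Pnp, the phosphorylase that splits inosine and guanosine, went from 13.95 to 217 CPM (log2 3.96 ± 0.11, adjusted p = 3.7e-16). Its near copy Pnp2, with which it may share reads, went from 0.366 to 13.6 CPM (5.18 ± 0.31, adjusted p = 3.1e-11, and 6.34 without control library 1). Dck, which phosphorylates deoxynucleosides, went from 62.3 to 228 CPM (1.87 ± 0.08, adjusted p = 5.9e-14). Hprt, which salvages hypoxanthine and guanine, fell from 197 to 94.2 CPM (−1.07 ± 0.07, adjusted p = 5.6e-11) and was higher with both agents at 128 CPM (0.44 ± 0.07, adjusted p = 8.7e-05). Adk, the kinase that turns adenosine into AMP, was looked at after its values were seen and had 20.5 CPM in control and 11.2 CPM with PgLPS (−0.88 ± 0.16, adjusted p = 8.1e-05). CS-PA/CNP alone raised Ampd3, an AMP deaminase, from 45.9 to 91.1 CPM (0.99 ± 0.10, adjusted p = 6.1e-07).

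Among 15 genes of the cyclic AMP signal and its response 13 were tested. On TMM-scaled counts 5 were called higher with PgLPS, Prkar1a among them, and 6 lower. Subunits of protein kinase A differed among themselves. Prkacb fell by −0.87 ± 0.07 (adjusted p = 2.3e-09, edgeR) and Prkar2a by −0.85 ± 0.08 (adjusted p = 9e-09), while no direction can be given for Prkar1a or Prkaca. Prkar1a was at 0.15 ± 0.05 (adjusted p = 0.019) and Prkaca at 0.01 ± 0.07 (adjusted p = 0.88), but at −0.26 and −0.40 with scaling by library totals (adjusted p = 0.00033 and 3.8e-05). Nr4a1, an immediate-early nuclear receptor, fell from 8.55 to 3.76 CPM (−1.19 ± 0.20, adjusted p = 4.4e-05). With CS-PA/CNP alone 0 of the 13 rose and 2 fell, and the smallest adjusted p belonged to Prkacb (−0.41 ± 0.07, adjusted p = 4e-04).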
